A study of Mus musculus with 6 samples.

Results

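The microRNAs (miRNAs) miR-184 and miR-31 were followed in small RNA libraries of mouse RPE-choroid-sclera tissue, the retinal pigment epithelium (RPE) with the layers behind it. Laser-induced choroidal neovascularization (CNV) is a model in which laser burns break the membrane under the RPE and new vessels grow from the choroid into the lesion. Every entry of the deposited tables whose name begins with mmu-miR-184- or mmu-miR-31- was taken, which gave 4 of 2334 listed small RNAs: mmu-miR-184-3p, mmu-miR-184-5p, mmu-miR-31-5p and mmu-miR-31-3p, written below without the mouse prefix. The CNV group was male mice of 7 to 8 weeks whose eyes received 25 spots each (532 nm, 100 mW, 0.1 s, 50 µm), with tissue taken 7 days later, and the control group was age-matched male mice without laser. No genotype or strain is given in the labels. Both groups have 3 libraries, and 4 eyes were pooled for each. Whether separate pools hold separate mice is not stated, so every p-value reflects only the variation from pool to pool, which may be partly technical.

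A miRNA precursor is a hairpin that is cut into a duplex, and either of its arms (5p or 3p) can be loaded into the silencing complex, where the seed at bases 2 to 8 does most of the target recognition. In the eye miR-184 is best known as an abundant miRNA of corneal epithelium and lens, and it is also found in RPE. Mature miR-31 is found in stratified epithelia and in many mesenchymal cells. Both have been reported to be lower in the mouse retina when ischemia drives new vessel growth, and both have been described as antiangiogenic there.

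The sequences are shown because the seed of each arm does most of its target recognition. The whole sequence bears on whether its reads could be confused with those of a relative. All 4 arms were found in the RefSeq miRNA table (build GRCm38.p6). They are written 5′ to 3′ with the seed in capitals.
miR-184-3p: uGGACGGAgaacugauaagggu
miR-184-5p: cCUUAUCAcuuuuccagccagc
miR-31-5p: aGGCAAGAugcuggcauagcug
miR-31-3p: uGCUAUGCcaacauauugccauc
No other mature miRNA of the 1679 names in that table had the seed of any of the 4 arms. The closest mature sequences from other genes, aligned without gaps, differed at 9 of 22 bases from miR-184-3p (miR-7066-5p) and at 8 of 22 from miR-31-5p (miR-1941-5p). For miR-184-5p the distance was 8 of 22 (miR-19b-1-5p) and for miR-31-3p 10 of 23 (miR-1963). None of the 4 arms had counts identical to those of another miRNA.

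The precursors show where the arms lie, in capitals, along each hairpin.
Mir184: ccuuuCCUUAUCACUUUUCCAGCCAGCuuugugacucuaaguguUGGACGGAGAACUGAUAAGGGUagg
Mir31: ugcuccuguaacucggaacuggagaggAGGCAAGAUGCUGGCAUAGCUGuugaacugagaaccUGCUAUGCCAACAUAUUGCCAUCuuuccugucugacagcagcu
Mir184 lies at chr9:89802260-89802328 on the minus strand (GRCm38), in no annotated host gene of GENCODE M21. The nearest gene, the noncoding 1700017I07Rik, begins 542 bases away on the opposite strand. Mir31 lies at chr4:88910557-88910662 on the minus strand, within an annotated exon (88909855 to 88910710) of the long noncoding RNA gene AL805899.1 on the same strand.

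The libraries held 5057142 to 12839386 counts, with control replicate 2 the deepest. After a filter on low counts 997 small RNAs were tested, 541 miRNAs and 456 fragments of transfer RNA (tsRNAs), and all 4 arms passed it. Levels are CPM, read counts per unit of library size after scaling by trimmed mean of M-values (TMM). Group levels are means ± SD of 3 pools (n = 3). In this test 3 of 997 small RNAs passed an adjusted p of 0.05, 0.301%, and all of them were higher in CNV (0.301% higher, 0% lower).

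The mean level of miR-184-3p in CNV was 1.53-fold that of control by the fitted fold change, a difference that did not pass the test. The counts in control replicates 1 to 3 were 70519, 116126 and 58816, which gave 12165, 8348 and 12010 CPM. In CNV replicates 1 to 3 they were 123745, 45733 and 96390, or 24077, 9103 and 16574 CPM. CNV replicates 1 and 3 thus lay above every control pool, while CNV replicate 2 lay between the control pools, so the groups overlapped. The lowest levels, in control replicate 2 and CNV replicate 2, differed by less than the SD of either group. The same holds for control replicates 3 and 1, next in order.

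Group means of miR-184-3p were 10841 ± 2160 CPM in control and 16585 ± 7487 CPM in CNV. The log2 fold change was 0.61 with a standard error (SE) of 0.32 and an adjusted p of 0.381 in the quasi-likelihood test of edgeR, adjusted by Benjamini-Hochberg over all 997. Its 95% interval, not adjusted for the number of small RNAs, ran from 0.921-fold to 2.54-fold, so a fall of more than 1.09-fold lay outside it. The direction was the same in all 14 alternative analyses, with log2 fold changes of 0.23 (without CNV replicate 1) to 0.85 (without CNV replicate 2) and adjusted p-values of 0.132 to 0.826. This miRNA was among the 29 most abundant in each library, between rank 15 in CNV replicate 1 and rank 29 in control replicate 2.

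**Figure D1:**
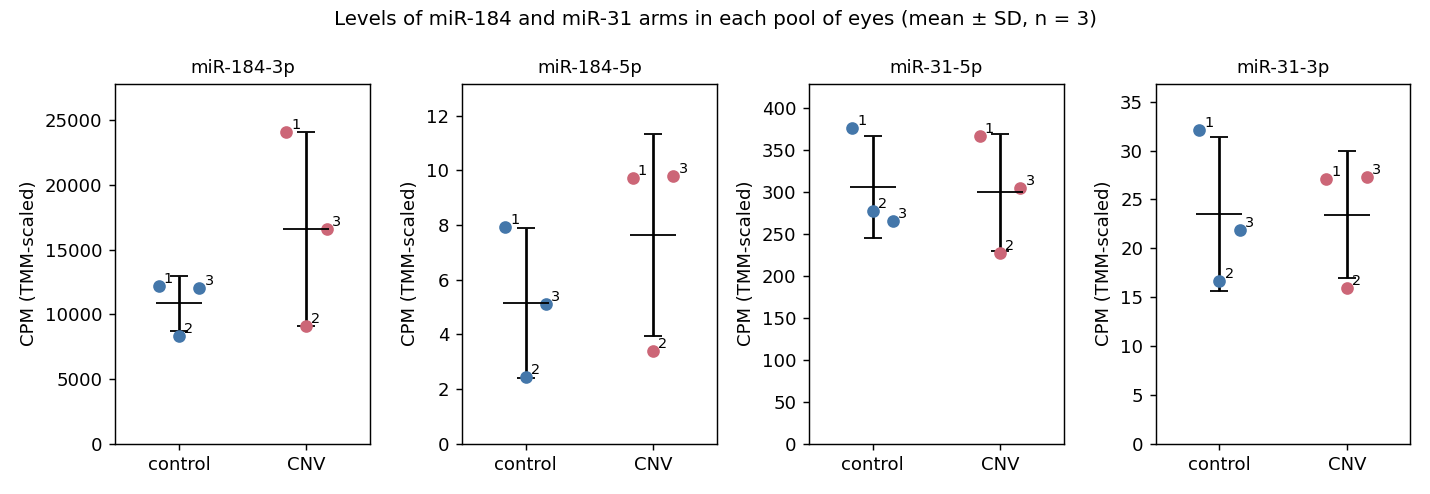
Levels in CPM (TMM-scaled, linear axes from 0) of the 4 arms in 3 control and 3 CNV pools, numbered by replicate, with the mean (bar) and SD (whiskers). The groups overlap for each arm, and CNV replicate 2 is the lowest CNV pool in each panel.

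The other strand of the same hairpin, miR-184-5p, is the rare arm that is usually degraded. It was counted 46, 34 and 25 times in control replicates 1 to 3 and 50, 17 and 57 times in CNV replicates 1 to 3. With so few counts the error of counting alone is wide, for example 9.90 to 27.2 (exact Poisson 95% interval, counting error only) around the 17 of CNV replicate 2. In CPM this was 7.94, 2.44 and 5.10 in control and 9.73, 3.38 and 9.80 in CNV. CNV replicates 1 and 3 were again the highest pools and control replicate 2 and CNV replicate 2 the lowest, as for the main arm. The log2 fold change was 0.64 (SE 0.50, adjusted p 0.592 in edgeR's test), with an unadjusted 95% interval from 0.704-fold to 3.44-fold. It was 0.12 without control replicate 2, 0.32 without CNV replicate 3, 0.43 without CNV replicate 1 and 1.13 without control replicate 1.

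The guide strand of miR-31, miR-31-5p, differed between the group means by far less than the spread within either group. It was counted 2179, 3856 and 1302 times in control replicates 1 to 3, or 375.9, 277.2 and 265.9 CPM. In CNV replicates 1 to 3 it was counted 1884, 1144 and 1773 times, or 366.6, 227.7 and 304.9 CPM. The highest pool was control replicate 1 and the lowest CNV replicate 2, while CNV replicates 1 and 3 lay above control replicates 2 and 3, so the groups overlapped. The means were 306 ± 60.5 and 299.7 ± 69.6 CPM, and the log2 fold change was -0.031 (SE 0.22, adjusted p 0.951 in edgeR's test). The unadjusted 95% interval ran from 0.692-fold to 1.38-fold, so falls of up to 1.45-fold lay within it. It ranked between 119 and 144 among miRNAs in the 6 libraries.

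The passenger arm miR-31-3p was at 32.1, 16.6 and 21.8 CPM in control replicates 1 to 3, from 186, 231 and 107 counts. In CNV replicates 1 to 3 it was at 27.0, 15.9 and 27.3 CPM, from 139, 80 and 159 counts. Replicate 2 was the lowest of each group and control replicate 1 the highest pool. The means were 23.5 ± 7.87 and 23.4 ± 6.51 CPM (log2 fold change 0.0056, SE 0.31, adjusted p 0.994 in edgeR's test), with an unadjusted 95% interval from 0.619-fold to 1.63-fold. The direction of miR-31-3p turned with the scaling: it was -0.15 with total counts alone, and -0.032 when size factors came from relative log expression. Leaving out 1 library gave -0.31 (without control replicate 2) to 0.30 (without control replicate 1). That of miR-31-5p was negative under each scaling (-0.19 with total counts) but turned without control replicate 1 (0.15) or CNV replicate 2 (0.08). Scaling by total counts moved the median log2 fold change of all 997 from 0.05 to -0.11.

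By sign, 3 of the 4 arms had positive fold changes with TMM, against 53.6% of all tested, and 1 of these 3, miR-31-3p, turned negative with total counts or relative log expression. None of the 4 arms passed the test in either direction, and none had groups that did not overlap, against 20.4% of the 997 with no overlap (11.4% higher and 8.93% lower in CNV). At an unadjusted p under 0.05 there were 177 small RNAs (17.8%; 10.8% higher and 6.92% lower), none of them an arm of miR-184 or miR-31. With DESeq2 38 of the 997 passed (3.81%) and with limma-voom 3, and again none of the 4 arms was among them. The spread between pools of a group was large for miR-184: the SD of log2 CPM within groups was 0.55 for miR-184-3p and 0.82 for miR-184-5p, against a median of 0.31 over all tested. A larger SD was seen in 15.2% and 2.81% of tested small RNAs. For miR-31-5p it was 0.31 and for miR-31-3p 0.46. The highest pool exceeded the lowest 2.88-fold for miR-184-3p and 1.65-fold for miR-31-5p.

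Ratios of counts within a library need no scaling between libraries, and 6 of them were compared. The mean log2 ratios were set against each other by exact permutation, two-sided, where the smallest p with 3 pools a group is 0.1. For miR-31 the 5p arm exceeded the 3p arm 11.7, 16.7 and 12.2 times in control replicates 1 to 3 and 13.6, 14.3 and 11.2 times in CNV (log2 difference -0.05, exact permutation p = 0.8, adjusted 0.96). For miR-184 the 3p arm exceeded the 5p arm 1533, 3415 and 2353 times in control and 2475, 2690 and 1691 times in CNV (log2 difference -0.04, exact permutation p = 1, adjusted 1). The groups overlapped for both, and both differences turned positive without control replicate 2 (0.11 and 0.24) or CNV replicate 3 (0.06 and 0.16). The large ratio of miR-184 rests on 17 to 57 counts of its rare arm.

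Set against each other, miR-184-3p and miR-31-5p differed in their group means, but not past the test. There were 32.4, 30.1 and 45.2 reads of miR-184-3p per read of miR-31-5p in control replicates 1 to 3, and 65.7, 40.0 and 54.4 in CNV. CNV replicates 1 and 3 lay above all control pools, and CNV replicate 2 lay below control replicate 3. The ratio was 1.48-fold higher on average in CNV (log2 difference 0.57, exact permutation p = 0.2, adjusted over 6 ratios 0.6).

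**Figure D2:**
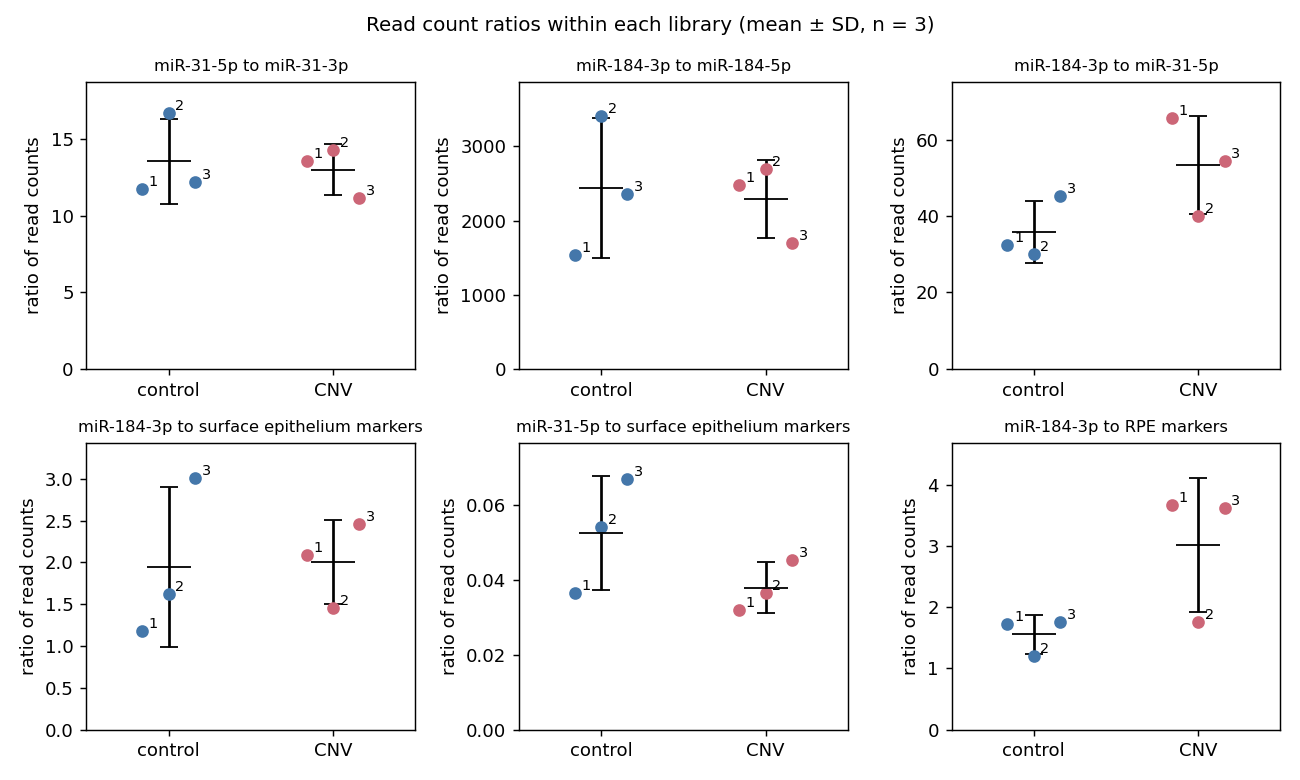
Ratios of read counts within each library (linear axes from 0) for 3 control and 3 CNV pools, numbered by replicate, with mean and SD. The 2 arm ratios overlap between groups, and the ratio of miR-184-3p to summed RPE markers lies between 1.196 and 1.76 in control and between 1.76 and 3.68 in CNV. That last ratio was added after the data were seen (exact permutation p = 0.1, adjusted over 6 ratios 0.6), and its RPE sum was itself lower in each CNV pool.

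The patterns over the 6 libraries were compared by the root mean square difference of log2 CPM after each small RNA's own mean was subtracted, which is a description with no test. The small RNA most like miR-184-3p was miR-203-3p, a miRNA of stratified epithelium and a member of the surface epithelium markers below, at a difference of 0.23 against a median of 0.60 over all tested. Its levels were 1098, 785.6 and 772.0 CPM in control replicates 1 to 3 and 1622, 809.3 and 1133 CPM in CNV. It was thus also highest in CNV replicate 1, followed by CNV replicate 3. Next came tRF-Gly-CCC-020 (0.28), tRF-Leu-AAG-013 (0.29), miR-205-3p (0.31) and miR-323-3p (0.32). The last 2 are the rare arm of the epithelial miR-205 and a miRNA of the Dlk1-Dio3 imprinted cluster.

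Closest to miR-184-5p was miR-205-3p, at 0.30. Closest to miR-31-3p was tRF-Ser-GCT-028, at 0.14, and miR-205-3p came second, at 0.17. This miRNA was low throughout, at 10.01, 3.95 and 6.53 CPM in control and 9.92, 4.58 and 7.91 CPM in CNV. The 2 arms of miR-184 were 0.36 apart, and the 2 arms of miR-31 0.19 apart. After miR-205-3p, miR-184-5p was closest to miR-184-3p (0.36), miR-31-3p (0.41), tRF-Leu-AAG-013 (0.43) and tRF-Asp-GTC-032 (0.45). The list for miR-31-3p went on with tRF-Met-CAT-015, tRF-Ser-AGA-001 and miR-31-5p (each 0.19).

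For miR-31-5p the closest were tRF-Ala-CGC-003 (0.10), miR-500-3p (0.11), tRF-Ser-GCT-028 (0.11), let-7i-3p (0.12) and miR-532-3p (0.14), against a median of 0.41. The difference between miR-184-3p and miR-31-5p themselves was 0.40. Some of the tsRNAs named as close were rare, so counting error weighs on their distances. Their mean levels over the 6 libraries were 2.10 CPM for tRF-Ser-GCT-028, 2.71 for tRF-Gly-CCC-020 and 3.38 for tRF-Asp-GTC-032. The sequences of 2 epithelial miRNAs are shown, with the seed in capitals, because miR-203-3p came closest to miR-184-3p and miR-205-3p to miR-184-5p.
miR-203-3p: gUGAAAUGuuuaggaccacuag
miR-205-3p: gAUUUCAGuggagugaagcuca
Neither shares a seed with the miR-184 or miR-31 arms, and the longest run of bases that either has in common with any of these 4 arms is 4.

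**Figure D3:**
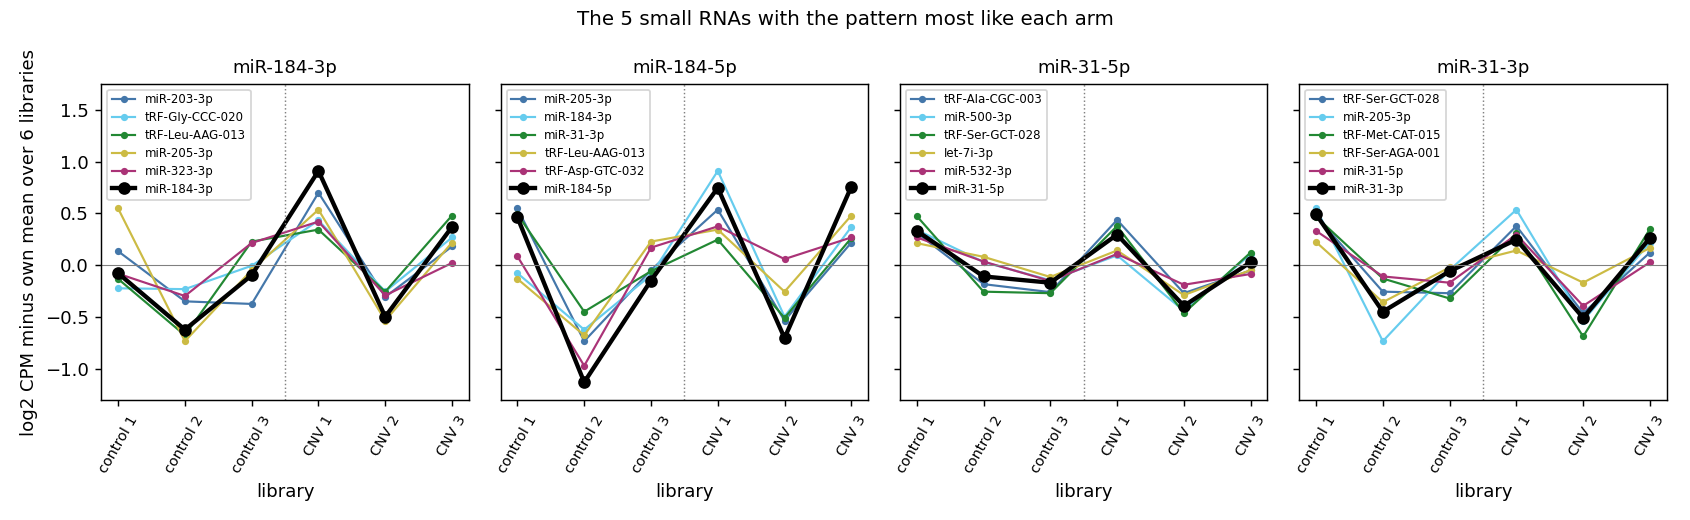
Log2 CPM minus the own mean over 6 libraries, for each arm (black) and the 5 small RNAs most like it (colours), by library; lines join points for reading only. The curves of miR-184-3p and miR-203-3p both peak in CNV replicate 1, and both miR-31 arms are lowest in CNV replicate 2.

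Cell type marker miRNAs were counted beside the arms, since in a pool of tissue fewer cells of a type and less RNA per cell cannot be told apart. All 7 markers of surface epithelium (miR-200a, miR-200b, miR-200c, miR-141, miR-429, miR-203 and miR-205), which line cornea, conjunctiva and skin rather than the tissue named in the labels, were counted in every library. Their summed level was 10323, 5128 and 3984 CPM in control replicates 1 to 3 and 11506, 6238 and 6730 CPM in CNV. None passed the test, and 6 had positive and 1 a negative fold change, against 53.6% positive among all tested. Their median log2 fold change was 0.20, against 0.05 over all tested. The most abundant, miR-205-5p, was at 2000 ± 1155 and 2866 ± 1251 CPM (log2 0.52). CNV replicate 1 was the highest pool for this sum, as for miR-184-3p. The second highest was control replicate 1, whereas for miR-184-3p it was CNV replicate 3. The part of these cells in the levels of miR-184 and miR-31 was not tested.

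Per read of the summed surface epithelium markers there were 1.18, 1.63 and 3.01 reads of miR-184-3p in control replicates 1 to 3 and 2.09, 1.46 and 2.46 in CNV. The groups overlapped (log2 difference 0.13, exact permutation p = 0.8, adjusted 0.96), and the direction turned without control replicate 1 (-0.18) or CNV replicate 3 (-0.04). For miR-31-5p the same ratio was 0.0364, 0.0541 and 0.0667 in control and 0.0319, 0.0365 and 0.0453 in CNV (log2 difference -0.44, exact permutation p = 0.3, adjusted 0.6). The difference was -0.24 without control replicate 3 and -0.68 without control replicate 1. CNV replicate 1 was the lowest pool of this ratio and control replicate 3 the highest.

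RPE markers, the arms of miR-204 and miR-211, stand for only the RPE layer of the labelled tissue, and were counted in every library. Their summed level was 7042, 6979 and 6841 CPM in control replicates 1 to 3 and 6546, 5166 and 4573 CPM in CNV. All 4 had negative log2 fold changes (median -0.44), against 53.6% positive among all tested, and none passed edgeR's test. Arms of the same precursor are not independent. In DESeq2, which called 3.81% of all tested, miR-211-3p did pass, as lower in CNV, with an adjusted p of 0.0116. The most abundant, miR-204-5p, was at 5023 ± 88.5 and 3960 ± 846 CPM (log2 -0.34). Per read of these markers there were 1.73, 1.196 and 1.76 reads of miR-184-3p in control and 3.68, 1.76 and 3.62 in CNV. The groups did not overlap, although CNV replicate 2 and control replicate 3 were equal to 3 digits. The ratio was 1.86-fold higher in CNV (log2 difference 0.90, exact permutation p = 0.1, the smallest that 3 against 3 can give, adjusted 0.6). Alone, miR-184-3p passed neither edgeR's nor DESeq2's test.

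The other marker lists were counted in every library too. Photoreceptors, retinal neurons and skeletal muscle are also not part of the tissue named in the labels. The summed photoreceptor markers were at 49378 to 75839 CPM in control and 24752 to 49508 in CNV, with miR-182-5p the most abundant at log2 -0.92. The retinal neuron sum was at 13852 to 21019 and 7818 to 12483 CPM, led by miR-9-5p at -0.60. The leukocyte sum was at 281 to 352 and 474 to 740 CPM, led by miR-142a-5p at 1.08. The lymphocyte miRNA miR-150-5p, described below, is not on this list and went the other way (log2 -0.48). Skeletal muscle markers ran from 34829 in control replicate 1 to 92068 in control replicate 3 (miR-1a-3p, log2 0.12), endothelial ones from 35246 to 45069 (miR-126a-3p, -0.08) and red cell ones from 955 to 4165 (miR-451a, 0.78). None of these markers passed edgeR's test. DESeq2 called all 3 leukocyte markers higher (adjusted p 0.0116 for miR-223-3p, 0.0137 for miR-142a-5p and 0.00946 for miR-142a-3p). It called 1 photoreceptor marker, miR-96-5p, and 1 retinal neuron marker, miR-9-3p, lower (adjusted p 0.0332 and 0.0220). Over all 997 tested, DESeq2 called 3.81% in either direction. None of these sums was highest in CNV replicates 1 and 3 together, as the miR-184 arms were.

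**Figure D4:**
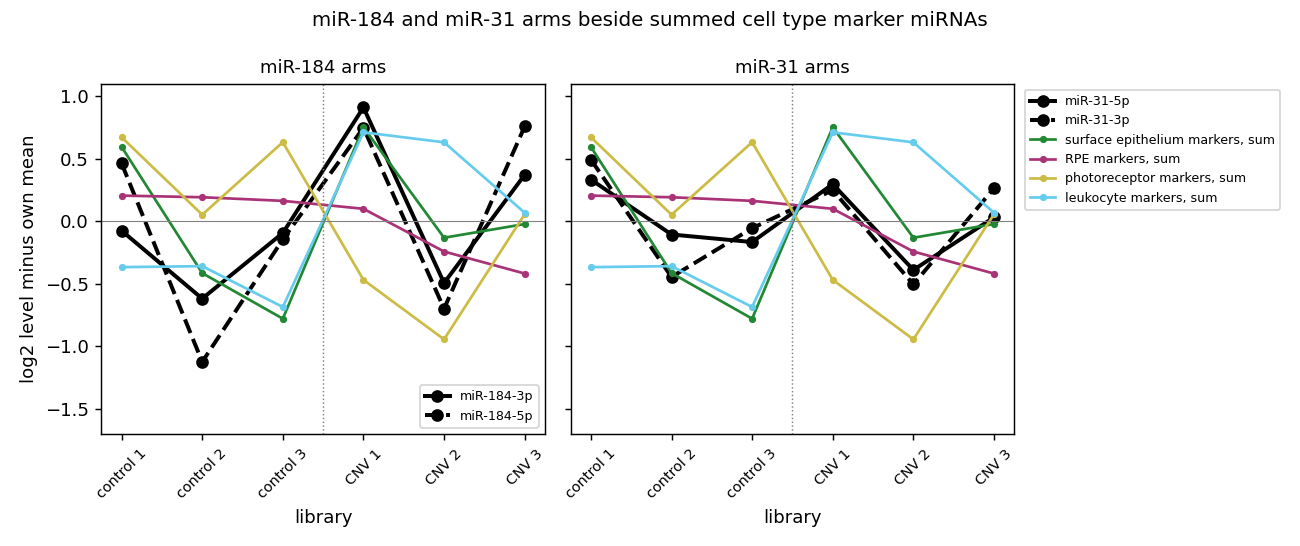
Log2 level minus the own mean over 6 libraries, for the miR-184 arms (left), the miR-31 arms (right) and summed CPM of 4 marker lists, by library; lines join points for reading only. The surface epithelium sum and miR-184-3p are both highest in CNV replicate 1, while the RPE sum is lower in each CNV pool than in each control pool.

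A list of 11 miRNAs reported to change with ischemia-driven new vessels in the mouse retina places these arms beside others. The reported directions thus come from another tissue and another model than the laser-treated RPE-choroid-sclera measured here. Among the 3 reported lower, miR-31-5p and miR-184-3p had overlapping groups. The third, miR-150-5p, a miRNA of mature lymphocytes that has been described to target Vegfa, was at 231.0, 224.2 and 182.3 CPM in control replicates 1 to 3 and 171.2, 147.7 and 138.4 CPM in CNV. Each CNV pool of miR-150-5p was below each control pool (log2 -0.48, SE 0.17), with an adjusted p of 0.214 in edgeR's test. So of these 3, none passed, 2 had negative and 1 a positive fold change.

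Among the 8 reported higher, 6 had positive and 2 negative fold changes, none past edgeR's test. The fibroblast miRNA miR-214-3p was at 641.1, 731.0 and 647.9 CPM in control and 1013, 1176 and 920.6 CPM in CNV (log2 0.62, adjusted p 0.127), and DESeq2 called it higher (adjusted p 0.0294). Its cluster partners miR-199a-5p and miR-199a-3p had log2 fold changes of 0.53 and 0.32 (the latter has the same counts as miR-199b-3p, so its reads were counted for both names), and miR-322-5p, the mouse counterpart of miR-424, 0.27. These 4 had no overlap between groups. The inflammation-induced miR-146a-5p was at log2 0.57 and the red cell miR-451a at 0.78, with overlapping groups. The 2 with negative fold changes were miR-181a-5p, abundant in retina, at -0.51 and miR-106a-5p, of a miR-17-92 related cluster, at -0.26. In all, groups did not overlap for 5 of the 11 (4 higher and 1 lower), against 20.4% of all tested, 7 had positive fold changes, against 53.6%, and the median log2 fold change was 0.32 against 0.05. The list was chosen with earlier results of these data known and holds cluster partners that are not independent, so these shares are only described.

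**Figure D5:**
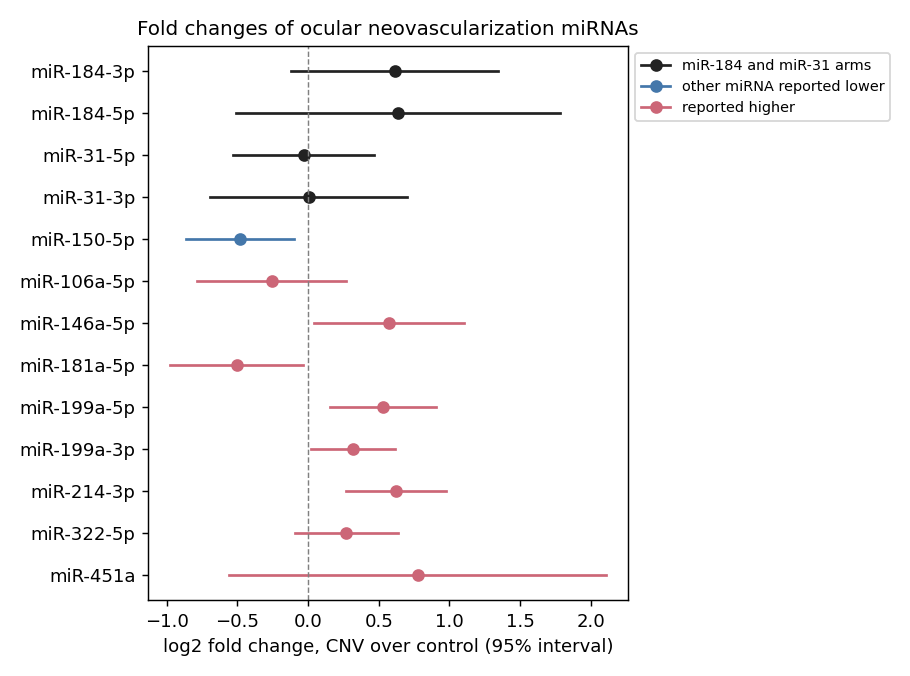
Log2 fold change of CNV over control in edgeR (point) with the unadjusted 95% interval derived from edgeR's F statistic (line). Shown are the 4 arms (black), miR-150-5p (blue, reported lower in ischemic retina) and 8 miRNAs reported higher there (red). The intervals of all 4 arms include 0, and that of miR-150-5p lies below it.

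A wider list of 27 miRNAs with pro- or antiangiogenic roles was also chosen with earlier results of these data known. Among its members 1 passed, miR-21a-5p, an injury-induced miRNA, against 0.301% of all tested. It was at 16940, 9742 and 11163 CPM in control replicates 1 to 3 and 45363, 50464 and 38230 CPM in CNV, with no overlap, and was higher in CNV (log2 1.82, adjusted p 0.0183 in edgeR's test). Of the other 26, 16 had positive and 10 negative fold changes, against 53.6% positive among all tested, and the list's median was 0.04 against 0.05 over all tested. The next smallest p-values belonged to miR-210-3p, induced by hypoxia (511 ± 72.4 to 339 ± 87.5 CPM, log2 -0.59, adjusted p 0.224), and miR-221-3p, made in vessel wall cells (log2 0.48, adjusted p 0.227). After these came miR-218-5p, of the Slit genes (log2 -0.41, adjusted p 0.249), and miR-18a-5p of the miR-17-92 cluster (log2 0.62, adjusted p 0.280). The log2 fold change of miR-184-3p, 0.61, was thus as large as those of several of these. Its SE of 0.32 was larger than those of miR-210-3p, miR-221-3p, miR-218-5p and miR-18a-5p (0.22, 0.18, 0.16 and 0.28). For miR-21a-5p the adjusted p missed the threshold in edgeR's test when any of 4 libraries was dropped: 0.236 (log2 1.57) and 0.171 (log2 1.70) for the second and the third control, 0.0866 (log2 1.80) and 0.129 (log2 1.68) for the first and the second CNV pool. With a minimum mean of 20 CPM it was 0.0545 (log2 1.80).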

How the data were processed

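The authors deposited read counts of mature miRNAs and tsRNAs, 1 table a library. The submitters' processing notes name Bowtie. For the version, build, mismatch setting and treatment of multiply matching reads, nothing is given in the sources used here. The deposited CPM column, handled as a signal of the authors because it is relative to different totals for miRNAs and tsRNAs, was not used. Counts were filtered with filterByExpr (minimum count 10, minimum total 15), scaled by TMM and tested with edgeR 4.0.16 in R 4.3.3 in a quasi-likelihood fit with no covariate, with Benjamini-Hochberg adjustment over all 997. The fit was also run on simulated counts with planted changes larger than those of the arms, as a check of the code whose outcome is not reported here. Log2 levels used a prior count of 2. Alternatives used DESeq2 1.42.0, limma 3.58.1 (voom), other scalings and filters, miRNAs alone, a replicate block and each library left out. Small RNA counts carry ligation and amplification bias, so levels of different miRNAs, all of similar length, are compared as read counts only.

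The members and lists were chosen with earlier results of these data known. Named were the 4 arms, the 5 small RNAs most like each in pattern, miRNAs with a shared seed (none), the list of 11, the 5 of the angiogenic list with the smallest p and the most abundant member of each marker list. The miR-184-5p arm and 5 of the 6 ratios were added after the data were seen. The sequence neighbours and host genes come from the reference tables. Sequences are from RefSeq (GRCm38.p6), where 1560 of 1836 listed miRNAs matched by name, and host genes from GENCODE M21. Depth was 5057142 to 12839386 counts per library. Count intervals are exact Poisson at 95%.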

Additional observations from a re-analysis of the deposited data

How the results depend on the processing

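Neither miR-184-3p nor miR-184-5p changed direction or passed the threshold under any alternative run (14 and 13 of them). With a minimum mean of 20 CPM miR-184-5p was not tested. Leaving out each library gave log2 fold changes of 0.23 to 0.85 for miR-184-3p and 0.12 to 1.13 for miR-184-5p. The miR-31 arms, near 0, passed under none either, but turned sign. With the libraries left out in turn miR-31-5p ran from -0.21 to 0.15 and miR-31-3p from -0.31 to 0.30, and with miRNAs only miR-31-5p was at 0.028. For miR-31-3p the value was -0.032 with relative log expression factors, -0.15 with total counts as the only scaling, -0.090 with no filter, -0.029 with a minimum mean of 20 CPM and -0.035 with DESeq2. The log2 difference of the miR-31 arm ratio ran from -0.14 to 0.11, positive without control replicate 2 (0.11) or CNV replicate 3 (0.06). The miR-184 arm ratio ran from -0.34 to 0.24, positive without the same libraries (0.24 and 0.16). That of miR-184-3p to surface epithelium ran from -0.18 to 0.50. The cause of these turns was not tested.

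Small RNAs called numbered 88 with no filter, 0 with a minimum mean of 20 CPM, 6 with miRNAs only, 38 with DESeq2, 36 with the replicate block and 0 to 24 with a library left out. They were 0 without control replicate 2 or 3 or CNV replicate 1 or 2, and 24 without CNV replicate 3. In the list of 11, DESeq2 called 1 (miR-214-3p) and no filter 2 (miR-181a-5p lower, miR-451a higher). In the angiogenic list no filter called 2 (miR-21a-5p, miR-210-3p), a minimum mean of 20 CPM 0, and leaving out a library 0 to 1. The labels do not say that replicate numbers pair the pools, so the numbers were not taken as pairs. Same-numbered pools correlated at 0.29, 0.03 and 0.17 in their deviations from the group means. Of the 6 libraries, 5 correlated best with their own number (control replicate 2 did not), a hint from the data and not from the design. With the replicate block miR-184-3p was at 0.52 (adjusted p 0.144) and the miR-31 arms at -0.041 (5p) and 0.0029 (3p). For miR-184-5p depth limits the precision, at 17 to 57 counts.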
